A study of Mus musculus with 3 samples.

Results

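Genes of glycolysis and of the response to low oxygen were described in the genital tubercle, the outgrowth of the embryonic perineum that becomes the penis or the clitoris. The set was defined by gene symbol alone, as every probe set that the platform annotation ties to exactly 1 of 47 listed symbols. It held 94 of the 45040 probe sets analysed and covered 43 of the 47 genes. Bnip3l was annotated only on 3 probe sets that carry further symbols, and Gpi1, Eno1 and Ero1l had no probe set of their own, so these 4 genes have no signal here, and Gpi1, Eno1 and Ero1l enter only the promoter windows. The 3 samples, replicates 1, 2 and 3, were unpooled mouse tubercles labelled male, at embryonic day 14 (Theiler stage 22) and strain FVB/N, from FVB/N females mated with males of the SMAA/EYFP transgene. Expression of that transgene, a fluorescent marker named after the smooth muscle actin gene Acta2, guided the dissection, and which cells it marks is not stated in the labels. No treated or control group exists, and the 1 label that varies is a limb landmark, with fingers already visible in replicate 3 and only indented footplate borders in replicates 1 and 2.

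Glycolysis splits glucose into pyruvate through a chain of enzymes, most of them encoded by several genes with different tissue distributions, and lactate dehydrogenase and the monocarboxylate carriers handle the lactate that forms when pyruvate is not burnt in mitochondria. Many of these genes are also targets of the hypoxia-inducible factors, pairs of an oxygen-labile α subunit (Hif1a or Epas1) with the stable partner Arnt. With oxygen present, the Egln prolyl hydroxylases mark the α subunit for the ubiquitin ligase component Vhl, and Hif1an blocks its activity, so much of the control of this pathway lies in protein stability, which an mRNA array does not measure. Fast-growing embryonic tissues often form lactate even where oxygen is present.

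The hypoxia-inducible factors bind a short core, ACGTG or GCGTG, near many of their targets. In the 250 bases before the first start listed by RefSeq (GRCm38.p6), which were found for 43 of the 47 listed genes (all but Slc2a3, Epas1, Bnip3l and Ndrg1), 1 or both cores occurred on either strand in 32, or 74.4% (exact 95% interval 58.8 to 86.5, counting error only), against 38.6% of the same window of 27025 genes. With ACGTG alone the shares were 48.8% and 16.6%. Since many of the listed genes are known targets of these factors, the shares are a description and not a test. The windows of the listed genes were also richer in G and C, with a median of 59.2% against 52.0%, and both cores hold a CG step. Whether the higher share goes beyond that base composition was not tested. ACGTG was found in 7 of 10 windows of the hypoxia response genes and in 5 of 19 of the glycolytic enzymes. Further listed starts were not counted. Windows before later starts of Aldoa, Pkm and Mxi1 held ACGTG, where their first windows held neither core. The following 6 windows are shown because the values of these genes carry the results below: Slc2a1, higher in replicate 1 than in replicate 3, Ldha and Pgk1, whose brightest probe sets varied by 1.26-fold and 1.25-fold, and Bnip3, P4ha1 and P4ha2, which were low in replicate 2. Each runs 5′ to 3′ on the strand of the gene and ends just before the start, and capitals mark every core match on either strand.
Slc2a1 (chr4:119108495-119108744, plus strand): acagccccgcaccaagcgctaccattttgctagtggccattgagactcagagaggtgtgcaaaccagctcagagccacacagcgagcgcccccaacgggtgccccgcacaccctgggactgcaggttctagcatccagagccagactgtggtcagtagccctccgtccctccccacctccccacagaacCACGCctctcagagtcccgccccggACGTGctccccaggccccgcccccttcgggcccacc
Ldha (chr7:46845554-46845803, plus strand): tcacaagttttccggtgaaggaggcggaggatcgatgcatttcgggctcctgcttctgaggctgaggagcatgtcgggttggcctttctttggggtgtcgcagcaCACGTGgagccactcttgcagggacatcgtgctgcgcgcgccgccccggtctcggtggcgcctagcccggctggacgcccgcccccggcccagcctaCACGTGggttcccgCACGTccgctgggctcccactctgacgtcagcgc
Pgk1 (chrX:106186850-106187099, plus strand): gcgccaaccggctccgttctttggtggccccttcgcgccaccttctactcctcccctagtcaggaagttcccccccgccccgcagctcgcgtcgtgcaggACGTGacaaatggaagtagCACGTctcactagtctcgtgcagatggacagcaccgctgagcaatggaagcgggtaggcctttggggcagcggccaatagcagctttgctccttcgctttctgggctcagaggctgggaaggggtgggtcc
Bnip3 (chr7:138909507-138909756, minus strand): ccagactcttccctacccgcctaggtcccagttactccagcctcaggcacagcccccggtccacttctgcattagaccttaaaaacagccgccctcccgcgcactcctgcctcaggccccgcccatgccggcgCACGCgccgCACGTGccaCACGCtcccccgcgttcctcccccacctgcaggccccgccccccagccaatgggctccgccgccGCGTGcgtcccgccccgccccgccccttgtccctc
P4ha1 (chr10:59323046-59323295, plus strand): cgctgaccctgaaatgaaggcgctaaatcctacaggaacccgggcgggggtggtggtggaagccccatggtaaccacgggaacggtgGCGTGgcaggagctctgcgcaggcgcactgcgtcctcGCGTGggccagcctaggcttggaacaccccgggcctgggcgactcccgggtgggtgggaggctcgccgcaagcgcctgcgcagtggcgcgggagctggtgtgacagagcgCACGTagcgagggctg
P4ha2 (chr11:54100674-54100923, plus strand): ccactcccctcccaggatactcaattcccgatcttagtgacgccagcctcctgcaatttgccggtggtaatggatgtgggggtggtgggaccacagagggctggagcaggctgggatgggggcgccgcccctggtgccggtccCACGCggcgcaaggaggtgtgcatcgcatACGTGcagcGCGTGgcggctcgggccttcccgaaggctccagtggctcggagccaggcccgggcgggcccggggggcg
Ldha held 5 matches, all of ACGTG, of which 4 came from a pair of palindromes read once on each strand. Bnip3 held 5, of which the 2 of ACGTG came from a single palindrome read once on each strand. P4ha1 and P4ha2 held 3 each, Slc2a1 and Pgk1 2 each. A match describes the letters and says nothing of binding in the tubercle.

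The arrays were checked before the members were read. The tubercle genes Isl1, Hoxd13, Shh and Tbx4 and the smooth muscle actin gene Acta2 were above background in 3 of 3 arrays. Genes of olfactory, vomeronasal and taste receptors, with 83 probe sets, set the background at their 95th percentile, 134.8, 251.3 and 197.3 signal units in replicates 1, 2 and 3. Xist, the RNA of the inactive X chromosome, read 8.05, 118 and 61883, and the Y-linked Eif2s3y read 4384, 3738 and 37.9, so the library labelled male as replicate 3 goes against its label, and results are also given without it. Replicate 1 carried the most signal of liver genes (summed signal 119116, 53662 and 9527 in replicates 1, 2 and 3, with 8, 6 and 5 of 8 genes above background) and of skeletal muscle genes (27979, 8770 and 3608, with 12, 10 and 6 of 15). Below, signals are linear intensities as deposited, differences between arrays are log2 values after an alignment of the arrays that moved replicate 1 by 0.11, replicate 2 by -0.12 and replicate 3 by 0.02, and SDs of signals have n = 3. Levels are not compared between genes, since probe sets differ in brightness, and in dissected tissue fewer cells of a type and less RNA per cell cannot be told apart.

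Most of the set was detected in the tubercle. By the probe set of highest mean signal, 39 of 43 genes (90.7%) were above background in 3 of 3 arrays, where 60.6% of all 18194 genes were. By probe set the count was 70 of 94, against 48.1% of all. Without replicate 3, the counts above background in both remaining arrays were also 39 and 70. The exceptions were Pgam2, Slc16a3, Adm and Car9. Pgam2, the muscle form of phosphoglycerate mutase, passed in no array, at 23.7, 15.6 and 23.2 in replicates 1, 2 and 3. Slc16a3, the carrier that exports lactate from strongly glycolytic cells, read 80.1, 215 and 243 and passed in replicate 3 alone, at least 1.69-fold over replicate 1. Car9, a carbonic anhydrase of the cell surface that is a classical hypoxia target, read 71.2, 258 and 272 and passed in replicates 2 and 3, there at least 1.64-fold and 1.90-fold over replicate 1. Adm, the vasodilator peptide adrenomedullin, read 277, 155 and 261 and passed in replicates 1 and 3, at least 1.29-fold and 1.14-fold over replicate 2. That probe set of Adm carries the suffix x, by which the maker marks probe sets with probes that also match other transcripts. The other probe set of Adm (30.8, 5.36 and 55.0) was above background in no array. Each fold given as at least a value is a fold of signal, taken against the background of the lower array. The backgrounds themselves differ (134.8, 251.3 and 197.3 in replicates 1, 2 and 3), and Car9 in replicate 2, at 258, lay close to 251.3. These folds are therefore not bounds on a difference in mRNA.

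**Figure D1:**
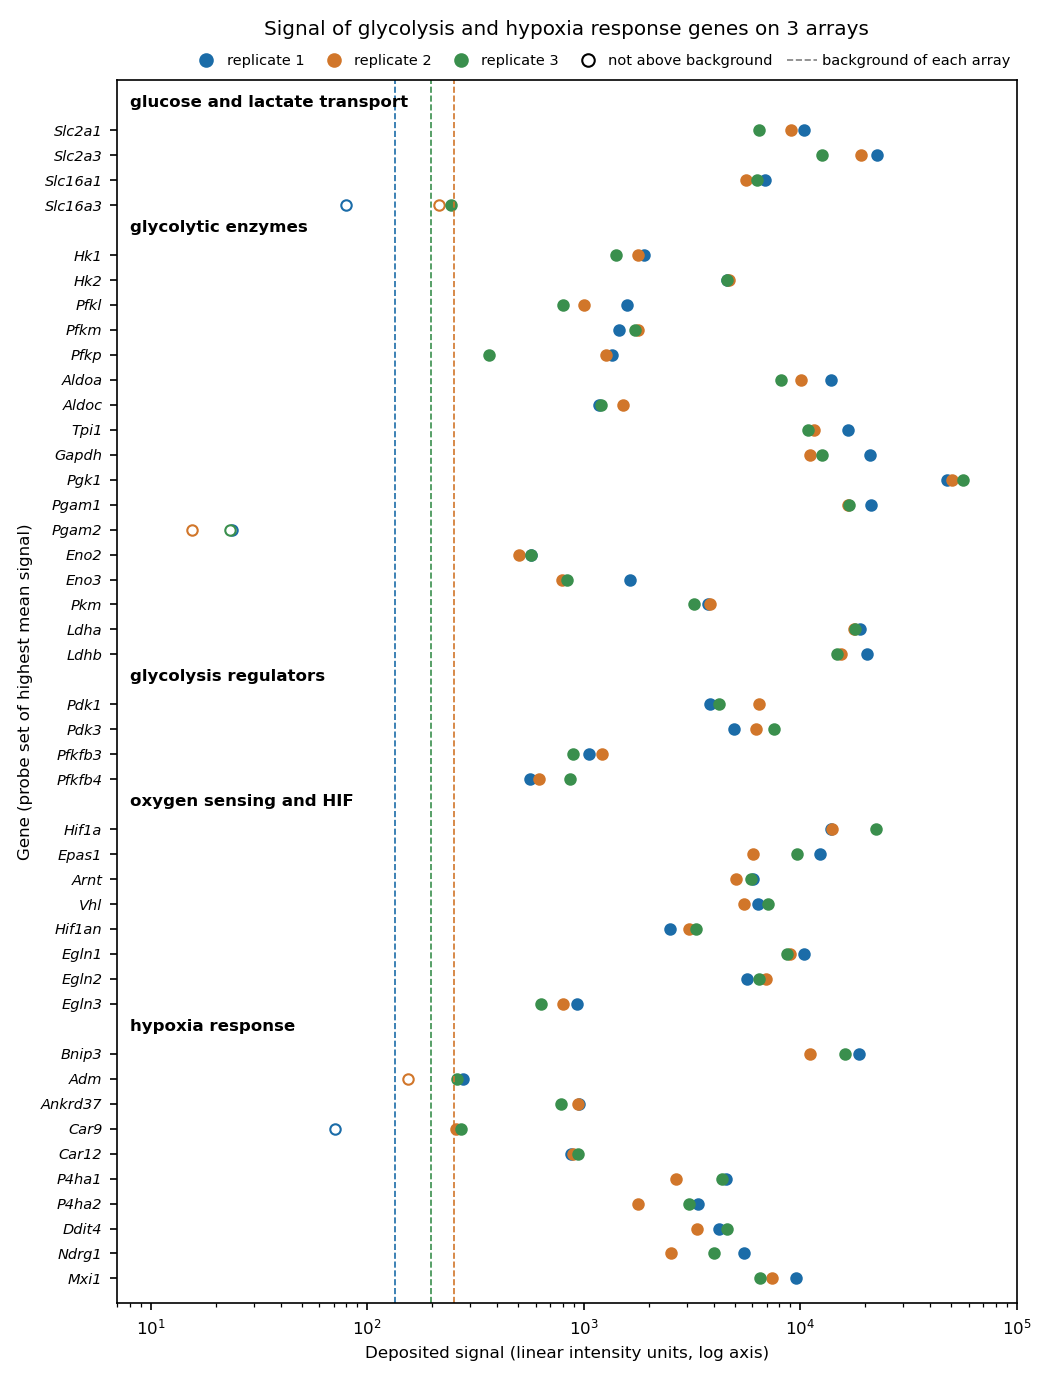
Deposited signal (log axis) of the brightest probe set of each of the 43 genes, grouped by role, with 1 point per array. Open points are not above background, and dashed lines show the background of each array at 134.8, 251.3 and 197.3. Only Pgam2, Slc16a3, Car9 and Adm have open points.

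Among the carriers of glucose and lactate, both glucose transporters were highest in replicate 1 and lowest in replicate 3 by their brightest probe sets. Slc2a1, the widely expressed transporter of erythrocytes and barriers, read 10410, 9068 and 6463 in replicates 1, 2 and 3 (8647 ± 2007), with a range of 0.78 on the aligned log2 scale. Slc2a3, a high-affinity transporter of neurons and embryonic tissue, read 22621, 19135 and 12667 (18141 ± 5051), a range of 0.93. The highest array exceeded the lowest by 1.71-fold and 1.90-fold. For Slc2a1 all 3 probe sets gave this order. For Slc2a3 the bright probe sets gave it, and a dimmer one (441, 1719 and 1075) was highest in replicate 2 and lowest in replicate 1. So was the dimmest (89.7, 343 and 307), which was above background in replicates 2 and 3 alone. The bright probe sets of Slc2a3 carry the suffixes s and x, both marks of probes shared with other transcripts, and the dimmer ones carry neither. The order with replicate 1 highest and replicate 3 lowest was also seen in the summed signal of liver and skeletal muscle genes above. Epithelial genes had it too (113336, 97172 and 84256, with 8 of 8 above background in each array). Of 7 erythroid genes above background in 3 of 3 arrays, 5 were highest in replicate 1 and 6 lowest in replicate 3 (medians 1.11, 0.17 and -1.10). Of all genes, 55.6% were highest in replicate 1 and 30.5% lowest in replicate 3. The erythroid sum read 88141, 100157 and 82148, most of it from Hbb-y (59853, 86889 and 77722), and Hba-a1 was above background in none. The part of these cell types in the order of the transporters was not tested. Slc16a1, which carries lactate and pyruvate in most tissues, read 6881, 5628 and 6335 (6281 ± 628), a range of 0.52.

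The glycolytic enzymes were above background in 3 of 3 arrays for 16 of 17 genes measured, and 13 of these 16 were highest in replicate 1. Of all 11021 genes above background in 3 of 3 arrays 55.6% were highest there. The median difference of replicate 1 from the mean of the other arrays was 0.46 for the enzymes and 0.26 for all genes. Without alignment it was 0.30 and 0.10. Without replicate 3, 14 of 16 enzymes were higher in replicate 1 than in replicate 2, as were 72.4% of all genes. The median difference between these 2 arrays was then 0.39 for the enzymes and 0.33 for all genes. Hexokinases open the chain. Hk2, the inducible hexokinase that traps glucose in the cell, read 4593, 4689 and 4597 (4627 ± 54.4), a range of 0.20, and Hk1, the constitutive one, read 1906, 1783 and 1413. Of the phosphofructokinase subunits, which catalyse the committed step, Pfkm varied least, at 1455, 1781 and 1730 and a range of 0.16. Pfkl read 1592, 1009 and 801, a range of 1.08, and was highest in replicate 1. Pfkp, the platelet subunit, read 1354, 1274 and 367, with replicate 3 far below both others, by 3.92-fold from the highest array. That gap rests on 1 probe set, since the other two of Pfkp were above background in no array.

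In the middle of the chain, Aldoa, the main aldolase, read 13836, 10068 and 8174 (10693 ± 2882) and Tpi1, triose phosphate isomerase, 16635, 11652 and 10866 (13051 ± 3129). After alignment both were highest in replicate 1, with ranges of 0.85 and 0.74. All 5 probe sets of Aldoa and all 3 of Tpi1 put replicate 1 highest after alignment. Those of Aldoa all carry the suffix x, by which the maker marks probe sets with probes that also match other transcripts. Aldoc, the aldolase of brain, stayed within 1.14-fold at 1183, 1514 and 1205. Gapdh was measured only by the control probe sets that tile its transcript. The one at the 3′ end read 21130, 11148 and 12672 (14984 ± 5378), with replicate 1 highest, the middle one 6507, 4202 and 5270, and the one at the 5′ end 983, 749 and 901. The range was 1.15 at the 3′ end, 0.86 in the middle and 0.62 at the 5′ end. The ratio of 3′ to 5′ signal was 21.5, 14.9 and 14.1 in replicates 1, 2 and 3, and that of the Actb controls 7.38, 2.21 and 4.42, both highest in replicate 1. The ratio of the Pcx controls was also highest there (12.7, 2.61 and 3.91) and that of the Tfrc controls highest in replicate 2 (4.36, 10.1 and 3.79), each with a 5′ signal below background in that array. The part of this 3′ excess in the differences of the other members was not tested.

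Pgk1, phosphoglycerate kinase and the first enzyme of the chain to yield ATP, showed how far probe sets of a gene can differ. Its brightest probe set read 47546, 50180 and 56778 (51502 ± 4756) and after alignment was lowest in replicate 2, by 1.25-fold from the highest array. Another read 40921, 17115 and 19608, highest in replicate 1, a range of 1.49. Both carry the suffix x. The third lay between them at 41372, 30511 and 36979. Pgam1, the general phosphoglycerate mutase, read 21216, 16596 and 16834, and Pkm, pyruvate kinase, 3743, 3841 and 3238. Of the enolases measured, Eno2, the neuronal form, read 572, 503 and 572, and Eno3, the muscle form, 1635, 795 and 838 (1089 ± 473). Eno3 had a range of 1.27 and was highest in replicate 1, the array in which the summed skeletal muscle signal was highest, while Pfkm, also a muscle form, had a range of 0.16 and Pgam2 passed nowhere. The part of muscle cells in the Eno3 signal was not tested. The lactate dehydrogenases closed the chain. Ldha, the form that favours lactate, stayed within 1.26-fold (18959, 17685 and 17934), and Ldhb, the form that favours pyruvate, read 20412, 15411 and 14871, a range of 0.63, with replicate 1 highest in all 4 of its probe sets.

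The regulators of glycolytic flux did not share this lean. Pdk1 and Pdk3 are kinases that shut pyruvate out of the mitochondrial dehydrogenase, and Pfkfb3 and Pfkfb4 make the allosteric activator of phosphofructokinase. Pdk3 read 4945, 6268 and 7550 (6254 ± 1303) and Pfkfb4 564, 625 and 867 (685 ± 160), both highest in replicate 3. Pfkfb3 read 1057, 1213 and 895. The brightest probe set of Pdk1 read 3839, 6465 and 4225, highest in replicate 2, whereas others of its probe sets read 4779, 5438 and 3283 and 4696, 4419 and 3166 and were highest in replicate 1 after alignment. The median difference of replicate 1 over the 4 regulators was -0.26, and it turned to 0.14 when arrays were aligned on the median of all probe sets, so its direction is not fixed.

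Of the oxygen-sensing genes, 8 of 8 were above background in 3 of 3 arrays. Hif1a read 13879, 14027 and 22415 (16773 ± 4886) and was 1.76-fold higher in replicate 3 than in the lowest array. All 3 of its probe sets above background were highest there after alignment, the next reading 4318, 5115 and 6212. Epas1, the α subunit of endothelium among other tissues, had another order, with 12306, 6055 and 9687 (9350 ± 3139), a range of 1.25 and replicate 2 lowest. Its second probe set, dim at 147, 439 and 251, was highest in replicate 2. The summed signal of endothelial genes was 11600, 12257 and 14882, with 8, 6 and 6 of 8 above background. Of the 6 above background in 3 of 3 arrays, 4 were lowest in replicate 2, as were Epas1 and 51.4% of all genes. The medians were -0.15, -0.37 and 0.50. The part of endothelial cells in the Epas1 signal was not tested. The partner Arnt read 6067, 5038 and 5916, Vhl 6364, 5490 and 7140, and Hif1an, the asparaginyl hydroxylase, 2508, 3064 and 3294. Of the prolyl hydroxylases, Egln2 had the narrowest range among the 39 genes, at 5680, 6962 and 6463 and an aligned range of 0.10. Egln1 read 10443, 8935 and 8724, and Egln3, itself a hypoxia target, 934, 805 and 639.

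The hypoxia response genes were mostly lowest in replicate 2. Of the 8 genes above background in 3 of 3 arrays, 6 were lowest in replicate 2 (51.4% of all genes were) and 0 were highest there (19.1% of all genes). The median difference of replicate 2 from the other arrays was -0.70 against -0.21 for all genes, and it ran from -0.45 to -1.02 under the other scalings. By mean signal, Bnip3, P4ha1, Ddit4, Ndrg1 and Mxi1 lay in the brightest of 3 equal bins of probe sets above background in 3 of 3 arrays. In that bin 60.8% of all probe sets were lowest in replicate 2 and 14.8% were highest there. The median difference of replicate 2 in that bin was -0.29. The part of brightness in the order of the hypoxia response genes was not tested. Ndrg1, a stress-responsive gene of differentiation, read 5531, 2523 and 4021 (4025 ± 1504), a range of 1.36. P4ha2 and P4ha1, the catalytic subunits of the collagen prolyl hydroxylase, read 3387, 1776 and 3077 (2747 ± 855) and 4527, 2673 and 4354 (3851 ± 1024). Bnip3, which directs the removal of mitochondria, read 18718, 11109 and 16106 (15311 ± 3866). In the brightest probe sets of these 4 genes replicate 2 was lowest and replicate 1 highest, by 1.97-fold to 2.57-fold. A dimmer probe set of Ndrg1 read 4324, 2778 and 2723, a range of 1.82-fold, and another 239, 252 and 258, within 1.12-fold. After alignment both were lowest in replicate 2, and the latter was highest in replicate 3. The brightest probe set of Ndrg1 carries the suffix s and the one at 4324, 2778 and 2723 the suffix x. The one at 239, 252 and 258 carries neither. Ddit4, an inhibitor of mTORC1 signalling, was also lowest in replicate 2, at 4221, 3348 and 4573. Car12, a second surface carbonic anhydrase, at 874, 897 and 941, and Ankrd37, at 951, 945 and 790, stayed within 1.15-fold and 1.28-fold. Mxi1, an antagonist of Myc, read 9598, 7435 and 6507 and was lowest in replicate 3, while a dimmer probe set read 632, 1785 and 948. Without replicate 3, all 8 genes were higher in replicate 1 than in replicate 2, with a median difference of 0.81, where 72.4% of all genes were higher in replicate 1 and the median was 0.33. Macrophage genes also had their lowest sum in replicate 2 (6919, 3774 and 4516, with 5, 4 and 5 of 6 above background and Itgam in none), and their part was not tested.

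**Figure D2:**
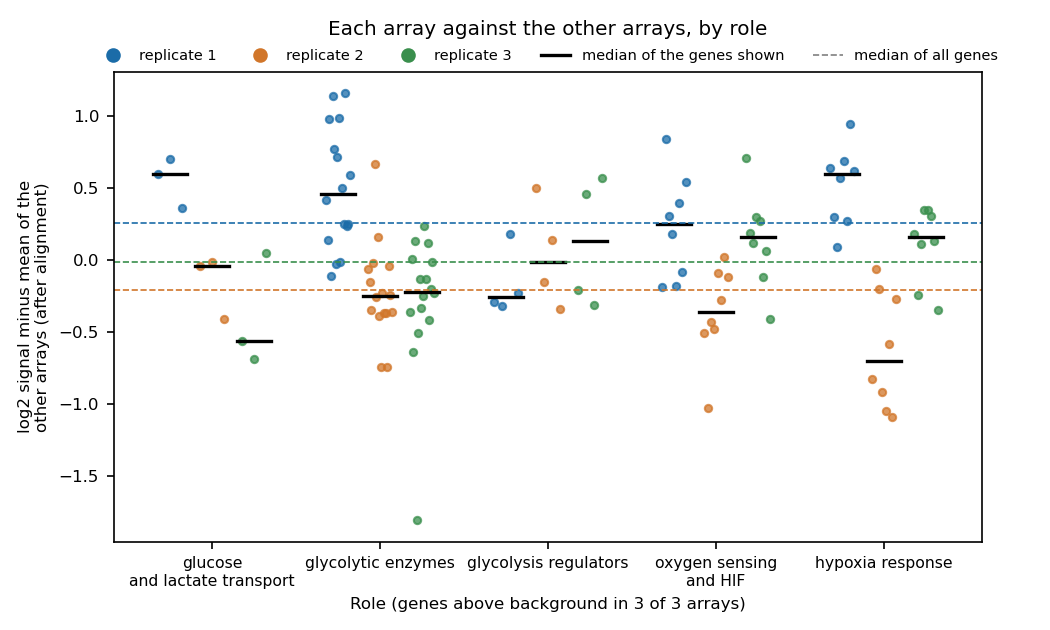
Aligned log2 signal of each array minus the mean of the other arrays, by role, with 1 point per gene above background in 3 of 3 arrays, bars at the median of the points and dashed lines at the median of all 11021 genes (0.26, -0.21 and -0.01). Replicate 2 has its lowest bar in the hypoxia response genes, at -0.70, and replicate 3 its lowest single point at Pfkp, at -1.81.

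Genes of the same pathways outside the set gave both like and unlike patterns. Of 24 other genes of the hypoxia-inducible factor pathway and its targets, 22 were above background in 3 of 3 arrays, with a median difference of replicate 2 of -0.29. The widest ranges there were of Plod2, a collagen lysyl hydroxylase (682, 5004 and 2300), the circadian repressor Bhlhe40 (1333, 578 and 830) and the ubiquitin ligase scaffold Cul2 (2656, 3727 and 1403). Plod2 was highest in the array where P4ha1 and P4ha2 were lowest. So was Vegfa, the angiogenic ligand, at 737, 1952 and 925, a gene chosen after its values were seen. Of 20 further genes of glycolysis and gluconeogenesis 12 were above background in 3 of 3 arrays. The widest ranges among these were of Pklr, the pyruvate kinase of liver and red cells (809, 358 and 350), the phosphatase G6pc3 (611, 271 and 405) and Bpgm, which makes the haemoglobin ligand of red cells (12953, 6616 and 7210), all highest in replicate 1. Slc2a2, the glucose transporter of liver, read 1080, 123 and 113 and passed in replicate 1 alone, also chosen after its values were seen, in the array where 8 of 8 liver genes were above background. Of 11 genes that bring pyruvate into mitochondria 10 passed in 3 of 3 arrays, with Pdp2 (474, 1231 and 864), Pdp1 (733, 579 and 959) and Dld (3442, 7018 and 5349) the most variable.

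**Figure D3:**
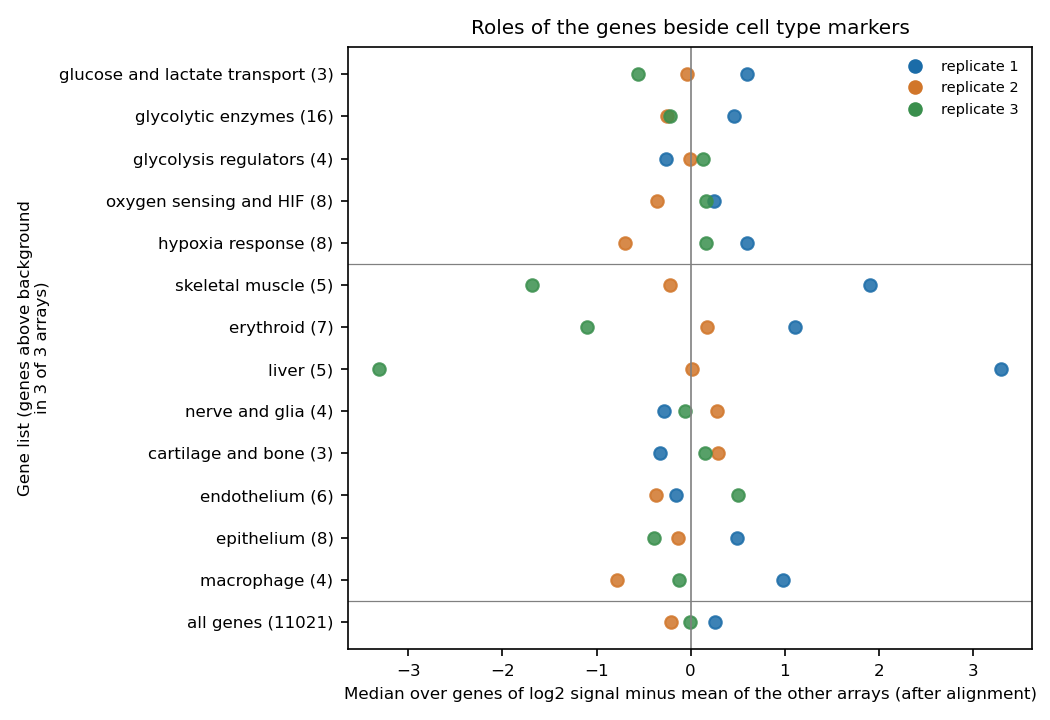
Median over genes of the aligned log2 signal of each array minus the mean of the other arrays, for the roles, for cell type marker lists and for all genes, with the number of genes above background in 3 of 3 arrays in brackets. Liver markers span from -3.31 in replicate 3 to 3.30 in replicate 1, while the roles stay between -0.70 and 0.60.

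Pooled over signal levels, the median spread between arrays was near that of the array as a whole. The median SD was 0.375 on the log2 scale over the 70 member probe sets above background and 0.365 over all 21662 (n = 3 arrays each). A range over 2-fold was found in 14 of the 70, against 28.1% of all, and in 7 of the 39 genes by their brightest probe set, against 19.5% of all genes. Those 7 were Pfkl, Pfkp, Gapdh, Eno3, Epas1, P4ha2 and Ndrg1. Of the 70 member probe sets, 45 lay in the brightest of 3 equal bins of mean signal. In that bin the median SD was 0.396 for the members and 0.321 for all probe sets. A range over 2-fold was found there in 4 of the 45 members, against 17.6% of all. The count of 14 rested on particular arrays, since it was 2 of 73 without replicate 1, 6 of 71 without replicate 2 and 12 of 70 without replicate 3, and the median SD without replicate 1 was 0.225.

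Replicate 1 was more often high in brighter probe sets. With all probe sets above background in 3 of 3 arrays divided into 3 equal bins of mean signal, replicate 1 was above the mean of the others in 38 of 45 member probe sets of the brightest bin, 11 of 16 of the middle bin and 4 of 9 of the dimmest, where all probe sets gave 76.7%, 58.2% and 39.9%. Of 16 genes with several such probe sets, the dimmest read lower in replicate 1, relative to the other arrays, than the brightest in 11, although in Tpi1 both differences were 0.72. The widest gaps were in Slc2a3 (-1.47 and 0.70), Epas1 (-1.02 and 0.84), Pfkl (-0.86 and 0.98) and Mxi1 (-0.88 and 0.62). In Pgk1 the order was the reverse (1.32 and -0.01). Of these 16 genes, 6 had the same highest array in every such probe set (Aldoa, Gapdh, Hif1a, Ldhb, Slc2a1 and Tpi1) and 10 did not. Detection differed too. Of 26 genes with more than 1 probe set, 10 had all above background in 3 of 3 arrays, Adm had none, and 15 had some (Slc2a3, Slc16a1, Hk1, Pfkp, Aldoc, Pdk1, Pfkfb3, Hif1a, Arnt, Vhl, Hif1an, Egln3, Car12, P4ha1 and Ndrg1). In Egln3 the dimmer probe set read 106, 21.6 and 236 and passed in replicate 3 alone. In P4ha1 it read 134, 211 and 262 and also passed in replicate 3 alone, where the brighter one was lowest in replicate 2.

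**Figure D4:**
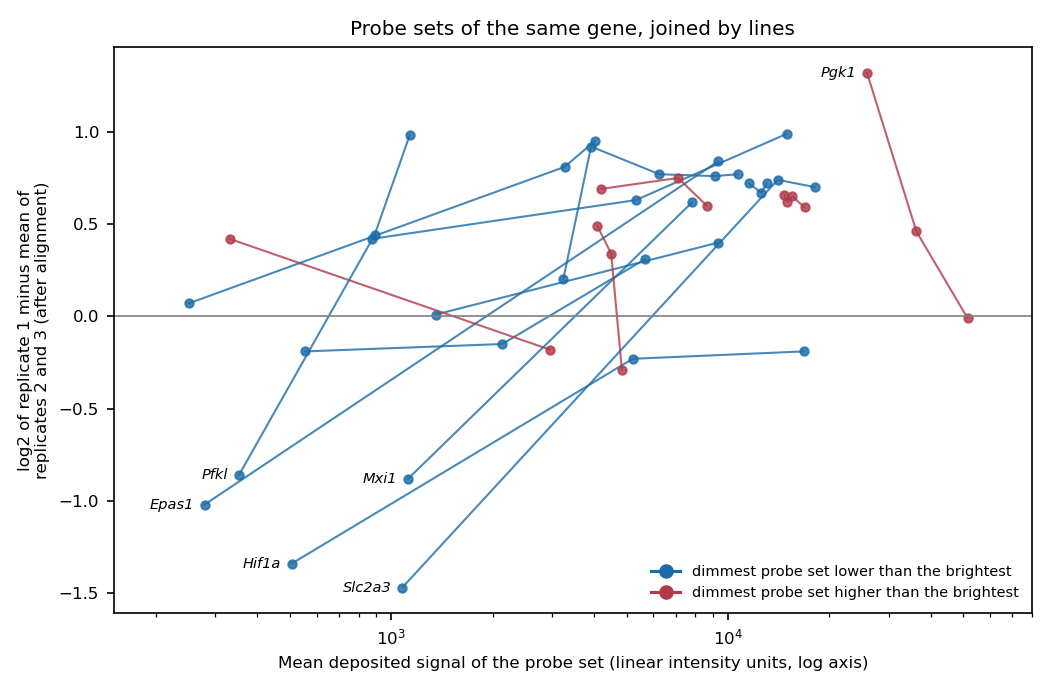
Mean deposited signal of each probe set (log axis) against the aligned log2 difference of replicate 1 from the mean of replicates 2 and 3, for the 16 genes with several probe sets above background in 3 of 3 arrays, with lines joining probe sets of 1 gene. In 11 genes the dimmest lies below the brightest (blue), most widely in Slc2a3, and Pgk1 runs from 1.32 down to -0.01.

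The landmark comparison asked whether the embryo with visible fingers differed from those with indented footplates. No member was called by limma with Benjamini-Hochberg adjustment (0 of 78 fitted, and 0% of all 29124), and 1 had an unadjusted p under 0.05 (2.1% of all, 612 probe sets). That was Pfkp, with a log2 difference of -1.81 ± 0.62 (± limma SE, unadjusted p = 0.0421, adjusted p = 1). Hif1a differed by 0.71 ± 0.61, Slc2a3 by -0.69 ± 0.63, Slc2a1 by -0.56 ± 0.63 and Pfkfb4 by 0.57 ± 0.60, each with an unadjusted p above 0.05 and an adjusted p of 1. The median over members was -0.02, and 0.05 over all probe sets fitted. With 1 array against 2 the fit had 1 residual degree of freedom, and in simulated data of this size 0 of 70 probe sets changed by 6 log2 units passed the adjusted threshold. The landmark cannot be told apart from the sex of replicate 3 or anything else particular to it.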

How the data were processed

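Per the labels, total RNA of 3 tubercles was purified with RNeasy, amplified in 2 rounds and coupled to biotin. Embryos may share litters or batches, which the labels do not say, so p-values measure only the spread between these samples, which may be technical. The deposited values are linear intensities per probe set from GCOS, per the submitters' processing notes, with version and settings not given in the sources used here. Their mean after trimming 2% at each end was 1500.0 in every array, so a global scaling precedes deposit. No depth applies to arrays, and their number limits precision.

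Of 64 control probe sets, the 3 of Gapdh were kept. Of all probe sets, 34958 had 1 symbol, 932 several and 9211 none. Of the symbols 34754 matched the RefSeq table of GRCm38.p6 by Entrez identifier and 0 changed. Signals below 1 were set to 1, log2 transformed and aligned on the median of probe sets above background in 3 of 3 arrays. A gene was named by its brightest probe set. Members and lists were chosen with earlier results of these data known. Named were members of widest or narrowest range by role, members below background or with disagreeing probe sets, and the 3 widest of each other list. The landmark was fitted with limma 3.58.1 (lmFit, eBayes, R 4.3.3), over probe sets that passed background on 1 array or more, and tested on simulated data. Other analysis used Python 3.11.15. Alternatives were other background percentiles, alignments, filters and left-out arrays. 0 columns were unmatched. The platform's probe coordinates were not used here.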

Additional observations from a re-analysis of the deposited data

How the results depend on the processing

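The count of members above background was stable over the settings tried, at 67 to 73 of 94 probe sets and 37 to 40 of 43 genes with the background at the 90th or 99th percentile, with a gene taken as the median of its probe sets, or without any 1 array. The count of member probe sets with an over 2-fold range, 14 of 70, was 37 with arrays aligned on the all-probe-set median, and 7 of 39 when only the brightest probe set of each gene entered, and it ran from 2 to 12 without any 1 array. The median SD ran from 0.225 to 0.418 without any 1 array and from 0.308 to 0.546 under the other alignments. The median landmark difference of the members ran from -0.25 to 0.18 without replicate 2 or 1, and its sign is not fixed. Probe sets called by limma for the landmark rose from 0 to 1 with the fit limited to those above background in 3 of 3 arrays and to 86 with arrays aligned on the all-probe-set median, with 0 members called in either. The cause was not tested. The share of member promoters with a core was 48.8% with ACGTG alone. The median difference of replicate 1 over all genes was 0.26, and 0.10 without alignment, 0.18 after quantile normalization and 0.66 with alignment on all probe sets, and the enzymes (0.30, 0.35 and 0.86) and hypoxia response genes (0.44, 0.38 and 0.99) moved with it. No paired analysis was possible because the labels give 1 group.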
